A study of Mus musculus with 51 samples.

Results

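The PIWI proteins and their partners were read in mouse male germ cells through 10 genes: Piwil1, Piwil2, Piwil4, Mov10l1, Tdrd1, Tdrd5, Tdrd9, Mael, Ddx4 and Asz1. They were chosen by name from the 55450 genes of the GENCODE M21 annotation, and not by any value measured here. For each gene the promoter, taken as 1000 bp either side of any annotated transcription start, and the gene body were looked up in every deposited table and list. The study asked how the meiotic histone methyltransferase PRDM9 and the chromatin remodeller HELLS act on chromatin at recombination hotspots. It measured open chromatin by ATAC-seq, in which a transposase cuts accessible DNA, and histone marks and DMC1 or HELLS binding by chromatin immunoprecipitation (ChIP-seq). Of its 51 samples, germ cells enriched from males 12 to 14 days old gave ATAC-seq and histone ChIP-seq after MNase digestion, and sonicated testis gave DMC1 and HELLS ChIP-seq.

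The ATAC-seq groups were C57BL/6J (B6, n = 2), B6-Prdm9CAST-KI (KI, a B6 strain whose name says that it carries the CAST allele of Prdm9, n = 2), Hells wt (n = 2), Hells CKO (n = 3) and the hybrid (B6xCAST) F1 (n = 2). The mark H3K9ac, found at active promoters and at hotspots, came from 3 B6, 2 KI, 1 Spo11/Spo11 and 1 F1 library. The mark H3K4me3, set by PRDM9 at hotspots and by other enzymes at promoters, came from 3 Hells CKO libraries, 1 of Hells wt, 1 of Spo11/+ and 2 of Spo11/Spo11. Spo11 encodes the enzyme that makes meiotic DNA breaks, and DMC1 is the recombinase that coats the ends of those breaks. DMC1 peaks came as 1 list for Hells het and 1 list for Hells CKO testis at 6 weeks of age. HELLS ChIP of KI testis at 12 to 14 days (n = 2) came with 1 IgG and 1 input library. The sources used here give neither the Cre that deletes Hells nor the strain background of the Spo11 and Hells lines, nor whether replicates were separate animals.

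The piRNA pathway silences transposons in the male germ line. PIWI proteins carry small RNAs, called piRNAs, that guide them to transposon transcripts, and in fetal germ cells also to the transposon DNA that is to be methylated. Helicases and nucleases make piRNAs from long precursor transcripts in cytoplasmic granules beside mitochondria, and Tudor-domain proteins hold the PIWI proteins there. Piwil1 (MIWI) is known for its part in spermatids and pachytene spermatocytes, Piwil2 (MILI) acts from fetal life onwards, and Piwil4 (MIWI2) acts in the nucleus of fetal germ cells. None of the tables measured RNA, so every value below is a level of chromatin.

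The promoters of several of these genes shared a short sequence, and the stretches are shown because the promoter levels that follow were read around them. Each is the 200 bases upstream of an annotated start, read from the RefSeq genome of build GRCm38.p6 on the gene's strand. Capitals mark the E-box CACGTG, which reads the same on both strands.
Piwil1 (chr5:128735974-128736173, plus strand): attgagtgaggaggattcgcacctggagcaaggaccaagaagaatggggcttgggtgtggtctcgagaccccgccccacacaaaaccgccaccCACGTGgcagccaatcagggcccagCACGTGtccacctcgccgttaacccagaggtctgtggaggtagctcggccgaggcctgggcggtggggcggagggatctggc
Tdrd9 (chr12:111971359-111971558, plus strand): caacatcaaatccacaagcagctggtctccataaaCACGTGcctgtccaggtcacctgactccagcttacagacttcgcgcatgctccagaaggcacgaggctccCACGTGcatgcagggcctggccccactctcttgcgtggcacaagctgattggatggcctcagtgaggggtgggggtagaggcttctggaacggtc
Mov10l1 (chr15:88982709-88982908, plus strand): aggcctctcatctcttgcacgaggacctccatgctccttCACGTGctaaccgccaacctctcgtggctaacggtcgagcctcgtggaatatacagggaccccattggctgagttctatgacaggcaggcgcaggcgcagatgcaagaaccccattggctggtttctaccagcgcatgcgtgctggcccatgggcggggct
Tdrd1 (chr19:56826009-56826208, plus strand): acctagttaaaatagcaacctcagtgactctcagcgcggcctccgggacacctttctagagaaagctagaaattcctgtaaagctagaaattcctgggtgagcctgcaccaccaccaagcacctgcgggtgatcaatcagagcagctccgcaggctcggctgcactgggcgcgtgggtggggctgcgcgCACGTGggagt
Ddx4 (chr13:112652476-112652675, minus strand): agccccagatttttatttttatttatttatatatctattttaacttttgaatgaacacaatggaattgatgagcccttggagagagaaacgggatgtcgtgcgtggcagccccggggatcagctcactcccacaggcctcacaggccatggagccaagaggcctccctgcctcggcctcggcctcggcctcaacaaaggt
Asz1 (chr6:18109062-18109261, minus strand): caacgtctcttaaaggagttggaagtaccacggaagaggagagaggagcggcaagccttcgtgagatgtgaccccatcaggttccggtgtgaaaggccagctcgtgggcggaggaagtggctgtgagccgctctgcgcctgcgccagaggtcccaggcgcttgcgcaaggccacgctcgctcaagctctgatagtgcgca
The stretches of Piwil1 and Tdrd9 held 2 E-boxes each, those of Mov10l1 and Tdrd1 held 1, and those of Ddx4 and Asz1 held 0. In the RefSeq promoter windows, 300 bases around a start and mostly before it, the E-box was found in 6 of the 9 genes with an entry: Ddx4, Mael, Mov10l1, Piwil1, Tdrd1 and Tdrd9. The share over all 32841 such windows was 7.15%, and it was 10.9% of the 14280 windows with at least 10 CpG. A further 3 motifs were searched on both strands, and no motif contains another. CCAAT was found in 5 of the 9 genes against 37.4% of all windows, GCGGGAA in 2 against 4.6% and AACNGTT, a MYB site, in 1 (Piwil4) against 4.45%. A match describes letters and shows no binding. The windows at the first start held from 10 CpG (Tdrd9) to 48 CpG (Tdrd5), where the median of all windows was 7. Piwil4 held 11 CpG at its 5′ start and 0 at its internal start.

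Before the results, some libraries stood apart. In H3K9ac, B6 replicate 2 differed from B6 replicates 1 and 3 at many regions, so that comparisons with B6 are given with and without it. In the Hells ATAC table, Hells CKO replicate 3 was the lowest of 5 libraries at 9 of the 10 main promoters, and in H3K4me3 the CKO replicate 3 was the lowest of 7 at 8 of 10. Library depth in regions ran from 28 to 34.6 M (units of 1000000 counts) for ATAC of B6 and KI, from 6.42 to 11.4 M for Hells ATAC, from 13.2 to 30.2 M for H3K9ac and from 13.3 to 42 M for H3K4me3. The labels' library numbers put B6 and KI into different series in ATAC and in H3K9ac, so strain and series cannot be told apart (the B6 H3K9ac libraries span 2 series, neither shared with KI). Promoter regions were present for 10 of 10 germ cell markers (such as Dazl and Sycp3) in every table, but also for 8 to 10 of 10 Sertoli cell markers, 4 to 6 of 7 Leydig cell markers, 5 to 7 of 7 stromal and endothelial markers and 0 to 2 of 6 blood markers. In H3K4me3 the median level over the germ cell markers ran from 10.8 to 14.5 CPM per kb (CPM is a region's count per 1000000 counts of its library after TMM scaling, here divided by the region's length in kilobases) over the libraries, and over the Sertoli markers from 6.31 to 12.9. In H3K9ac they ran from 6.33 to 8.16 and from 6.75 to 9.23. In such bulk samples fewer cells of a type and less signal per cell cannot be told apart.

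All 10 promoters carried H3K4me3, H3K9ac and open chromatin, at levels that ordered the genes. Piwil2, the helicase gene Mov10l1 and the Tudor gene Tdrd5 stood highest in H3K4me3, and the other PIWI genes Piwil1 and Piwil4 stood lowest. The level is that of the promoter region with the most counts, per kilobase, over all 7 libraries. Piwil2 had a median of 14.2 CPM per kb and ran from 9.51 to 17.8. Piwil1 had a median of 6.29 and ran from 4.47 to 7.03, and Piwil4 a median of 4.21 with a range of 3.94 to 5.45. The Piwil4 range lay below those of the 8 genes above Piwil1, while neighbours in the order overlapped throughout. Among 16193 genes with a region, mean H3K4me3 put Piwil2 at percentile 53.3, Piwil1 at 14.3 and Piwil4 at 8.07.

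The scaffold and helicase genes lay between. Tdrd5, which builds the granules of spermatocytes, had a median of 12.8 CPM per kb (11.8 to 13.6), the narrowest range after that of Piwil4. Mov10l1, the helicase that feeds precursors into processing, had 13 (7.97 to 16.8), and Mael, a nuclear and granule protein, had 12.0 (8.22 to 13.5). Asz1, which anchors the granules at mitochondria, had 10.6 (6.75 to 13.5), and Tdrd1, the partner of PIWIL2, had 10.2 (8.45 to 11.5). Ddx4, the germ-line VASA helicase, had 10 (5.67 to 12.5), and Tdrd9, a helicase with a Tudor domain, had 9.25 (6.63 to 10.8).

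Open chromatin gave a different order. In B6 and KI germ cells Ddx4 was highest, with 34.2 to 50.5 CPM per kb over the 4 libraries, and Piwil2 (26.7 to 34.5) and Mael (24.2 to 29.7) followed. Piwil1 (8.7 to 9.63) and Piwil4 (6.32 to 9.15) were again lowest and did not overlap with the other 8 genes. In the Hells libraries, Piwil2 (15.9 to 28.1), Mael (11.0 to 26.9) and Ddx4 (9.04 to 24.8) overlapped one another. H3K9ac over the 6 libraries ran from 3.22 to 7.41 at Piwil4 and from 8.88 to 15.3 at Piwil2. For Piwil4 the region is the internal start in ATAC and H3K9ac and the 5′ start in H3K4me3. A promoter region can serve neighbours too: another gene starts within reach of those of Piwil1, Piwil2, Tdrd5 and Mov10l1.

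**Figure D1:**
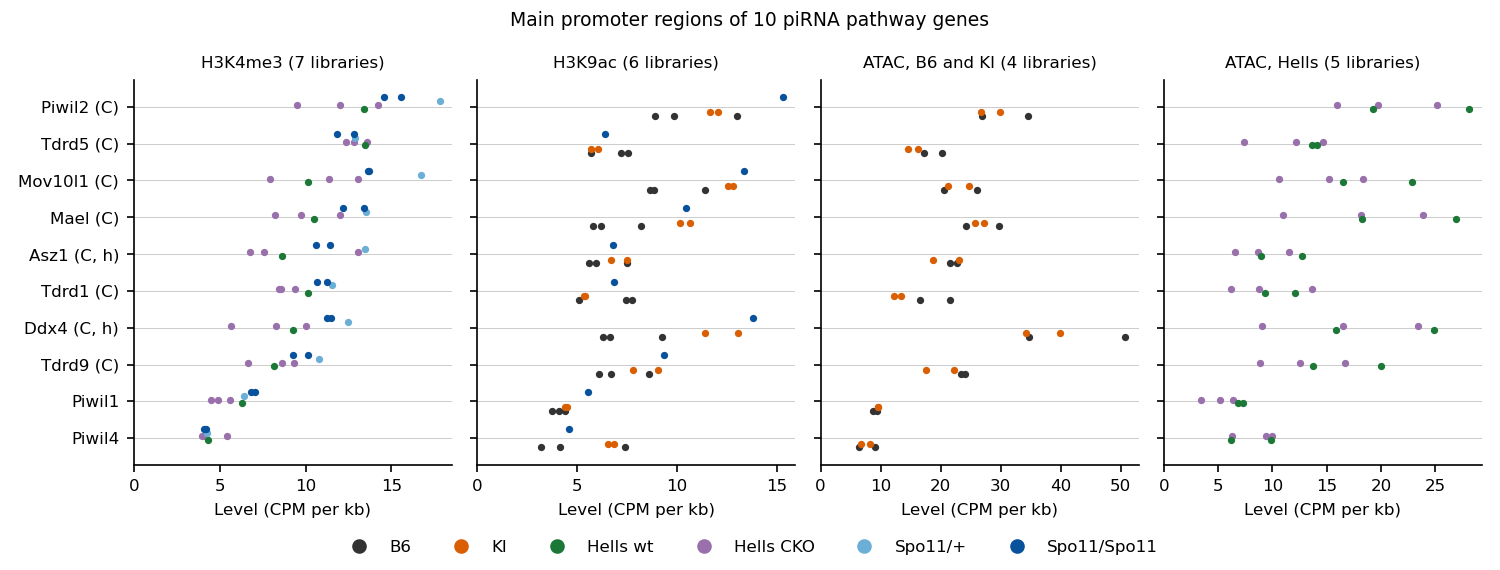
Level of the main promoter region of each gene in CPM per kb, 1 point per library, in the 4 tables, with genes ordered by mean H3K4me3. C marks genes with a Hells CKO DMC1 peak and h those with a Hells het DMC1 peak at that promoter. Piwil1 and Piwil4 are lowest in the panels of H3K4me3 and of ATAC in B6 and KI, and Ddx4 is highest in ATAC of B6 and KI.

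The chromatin over the gene bodies fell into unlike kinds, read from a deposited segmentation of B6 histone marks into 11 numbered states whose meanings the sources used here do not give. All 10 promoter windows touched state 1, but the share of all protein-coding promoter windows that do was not computed. Of the 37 annotated starts 8 lay in state 1 and 16 in state 2, where 37.6% and 18.3% of protein-coding starts lay. State 6, which covers 7.1% of the genome, filled 95.9% of the Mael span, 94.0% of Ddx4, 93.7% of Piwil2, 88.5% of Mov10l1, 73.2% of Tdrd9 and 71.3% of Asz1. That is 6 of 10 genes with over 50% of the span in state 6, where 22.5% of protein-coding genes had that. Tdrd1 (44.3%) and Tdrd5 (18.6%) had less, and Piwil1 (1.51%) and Piwil4 (0%) had almost none. State 11, the most common state of the genome at 43.7%, filled 68.7% of Piwil4, 61% of Piwil1 and 53.1% of Tdrd5. Tdrd1 differed from the rest, with 20.5% of its span in state 3 and 25.1% in state 5.

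**Figure D2:**
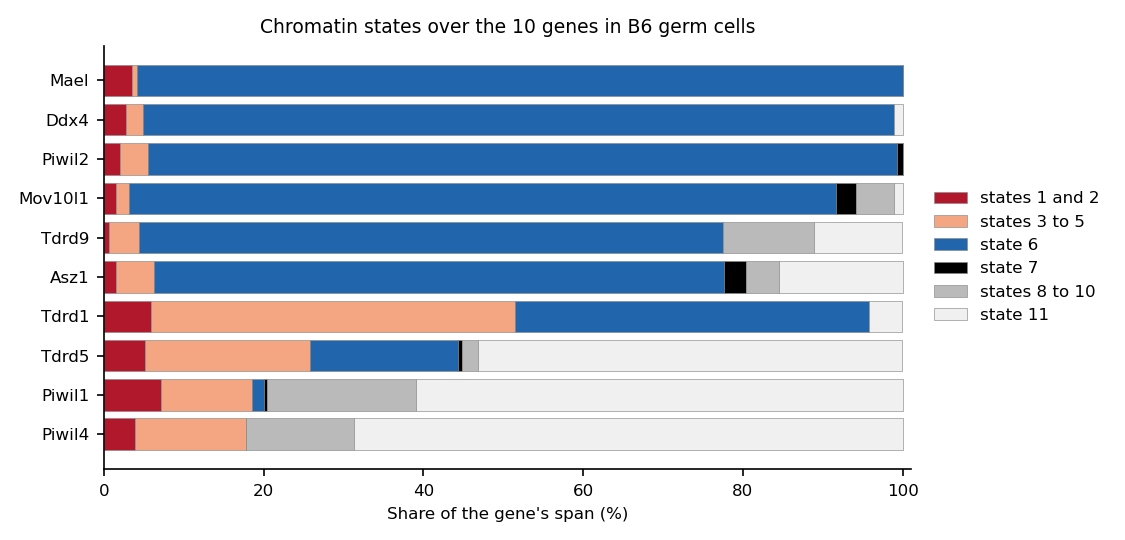
Share of each gene's span in groups of the 11 chromatin states of B6 germ cells, in percent, with genes ordered by state 6. State 6 fills most of 6 genes from Mael (95.9%) to Asz1 (71.3%), while state 11 fills most of Piwil4, Piwil1 and Tdrd5.

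Promoters of most of these genes carried a DMC1 peak when Hells was deleted. In the Hells CKO list, DMC1 peaks lay in the promoter window of 8 of 10 genes (80.0%, exact 95% binomial interval 44.4 to 97.5, counting error only), against 40.3% of 21938 protein-coding genes. The 2 genes without one were Piwil1 and Piwil4. In the Hells het list 3 of 10 genes had a peak (30%, interval 6.67 to 65.2), namely Ddx4, Asz1 and Mov10l1, against 7.72% of genes. Each list is a single one per genotype, so no replicate spread can be given, and the difference between the lists was not tested. The intervals treat the genes as independent draws, but the genes were chosen by name. They are therefore no test against the shares of all genes.

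The presence of a CKO peak moved with the promoter's H3K4me3. Over all genes with a region, the share with a CKO DMC1 peak was 13.7% in the lowest of 4 equal bins of H3K4me3, then 42.7%, 69.7% and 84.3%. Piwil1 and Piwil4 were in the lowest bin, Piwil2 in the third, and the other 7 genes, each with a CKO peak, in the second. At Ddx4 the CKO peak (chr13:112650103-112653876) enclosed a shorter het peak (chr13:112651763-112652808), and at Asz1 the CKO peak (chr6:18107200-18110717) likewise enclosed the het peak (chr6:18108344-18109143). At Mov10l1 the 5′ promoter had a CKO peak alone (chr15:88981340-88984681). Its het peak (chr15:89017657-89021898) lay at an internal start, together with a CKO peak (chr15:89018366-89020550). The small gene Gm23737 is also in reach of that start.

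Inside the genes, away from starts, 4 het peaks were listed. They lay in Asz1 (chr6:18092960-18097172), Tdrd1 (chr19:56853707-56856783), Tdrd5 (chr1:156280044-156281070) and Tdrd9 (chr12:112066033-112067035). A CKO peak overlapped the one in Asz1 (chr6:18094636-18096290), and the other 3 were in the het list alone. HELLS itself had a peak at 1 of 10 promoters, that of Ddx4 (chr13:112651727-112652639), against 6.73% of genes. The HELLS libraries held 91 and 65 counts there, the IgG library 15 and the input 23, where the medians over all 2675 peaks were 59, 50, 9 and 16. By counts per kilobase it ranked 2081 of 2675, and 51.7% of all HELLS peaks touched a promoter. The HELLS, IgG and input counts are not scaled to depth.

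The comparison of KI with B6 asked what the CAST allele of Prdm9 changes in an otherwise B6 genome. In ATAC, 2 sites inside member genes rose in KI, in Tdrd9 and in Ddx4, and no member promoter passed the test. The counts were tested over the whole table with edgeR's quasi-likelihood test at an adjusted p of 0.05. Of 32 member regions, 2 were higher and 0 lower in KI, where 7.14% of all 81887 regions were higher and 2.27% lower. The main promoters had a median log2 difference of -0.10 (from -0.57 to 0.09), beside -0.13 over all promoter regions, of which 3.37% passed the test. Among the 12 member promoter regions 0 passed and 1 had an unadjusted p under 0.05.

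The centres of both sites, and those of the sites in Asz1 and Mov10l1 described further on, are shown because their levels set libraries or groups apart. All are on the plus strand of GRCm38.p6, outside exons, 120 bases each, with CpG in capitals.
Tdrd9 site (chr12:112008249-112008368): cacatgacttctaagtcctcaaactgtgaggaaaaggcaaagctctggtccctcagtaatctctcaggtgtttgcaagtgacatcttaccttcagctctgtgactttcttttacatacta
Ddx4 site (chr13:112611190-112611309): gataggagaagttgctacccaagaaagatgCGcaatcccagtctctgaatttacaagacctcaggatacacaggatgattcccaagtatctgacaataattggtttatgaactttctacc
Asz1 site (chr6:18095141-18095260): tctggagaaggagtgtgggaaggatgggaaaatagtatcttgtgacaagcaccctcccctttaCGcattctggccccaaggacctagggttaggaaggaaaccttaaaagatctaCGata
Mov10l1 site (chr15:89019641-89019760): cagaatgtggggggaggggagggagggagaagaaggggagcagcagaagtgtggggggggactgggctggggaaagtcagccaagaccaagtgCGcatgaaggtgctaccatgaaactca
These centres held 0, 1, 2 and 1 CpG. No motif was searched in them.

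At the Tdrd9 site (chr12:112007755-112008862, in an intron and in state 6) ATAC was 1.61 and 1.26 CPM in the B6 libraries and 16.2 and 14.8 CPM in KI. Both KI libraries lay far above both B6 libraries, a log2 difference of 3.43 (SE 0.231, edgeR adjusted p = 6.51e-07). At the Ddx4 site (chr13:112610634-112611865, also intronic and in state 6) ATAC was 4.57 and 2.09 CPM in B6 and 16.5 and 13.4 CPM in KI. The groups again did not overlap, with a log2 difference of 2.17 (SE 0.299, edgeR adjusted p = 0.000163). Neither site held a DMC1 peak of the Hells lists, which come from samples not labelled as KI.

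A further 2 member regions just missed the threshold. The Tdrd1 promoter read 36.9 and 47.9 CPM in B6 and 30 and 27.3 in KI (log2 difference -0.57, SE 0.167, edgeR adjusted p = 0.054). The Asz1 site with both DMC1 peaks (chr6:18094841-18095477) read 4.73 and 3.15 CPM in B6 and 1.22 and 2.25 in KI (log2 difference -1.17, edgeR adjusted p = 0.0594). Both passed with another scaling (RLE, adjusted p = 0.0336 for each) and with DESeq2 (adjusted p = 0.0231 and 0.0431). Without B6 replicate 2 the count went from 2 to 6 regions called, as the promoters of Tdrd5 (-0.42) and Ddx4 (-0.47) passed as lower in KI too, and without B6 replicate 1 it went to 4. The calls over all regions moved too, from 5847 higher and 1856 lower to 8669 and 7789 without B6 replicate 2 and to 10370 and 8439 without B6 replicate 1.

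H3K9ac showed the same 2 sites higher in KI, and sites in Piwil2 and Mov10l1 beside them. ATAC of B6 and KI held no region at those sites in Piwil2 and Mov10l1, so openness was not tested there. Of 34 member regions, 4 were higher and 1 was lower in KI, where 12.1% of all 91909 regions were higher and 0.208% lower. At the Tdrd9 site H3K9ac was 1.32, 2.77 and 1.5 CPM in B6 and 24.3 and 27.5 CPM in KI (log2 difference 3.83, SE 0.352, edgeR adjusted p = 0.00596). The Ddx4 site read 0.613, 2.01 and 0.424 CPM in B6 against 13.7 and 16.9 in KI (4.01, SE 0.646, edgeR adjusted p = 0.018). In the single Spo11/Spo11 library, which carries no KI allele in its label, these sites read 2.83 and 2.68 CPM.

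The Piwil2 site (chr14:70405120-70406503) read 0.71, 2.14 and 0.881 CPM in B6 and 8.65 and 9.63 in KI (log2 difference 2.93, SE 0.493, edgeR adjusted p = 0.0201). The Mov10l1 site (chr15:89047551-89048344) read 0.0968, 0.315 and 0.13 CPM in B6 and 3.52 and 3.57 in KI (4.36, SE 0.581, edgeR adjusted p = 0.0118). All 4 sites that rose lay wholly in state 6, none within a promoter, and B6 replicate 2 was the highest of the B6 libraries at each. The region that fell was in Tdrd1 (chr19:56850575-56856265), which overlaps the het DMC1 peak of that gene. It read 24.5, 20.7 and 24.0 CPM in B6 and 11.8 and 12.9 in KI, with 17.4 in Spo11/Spo11 (-0.90, SE 0.164, edgeR adjusted p = 0.0247).

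**Figure D3:**
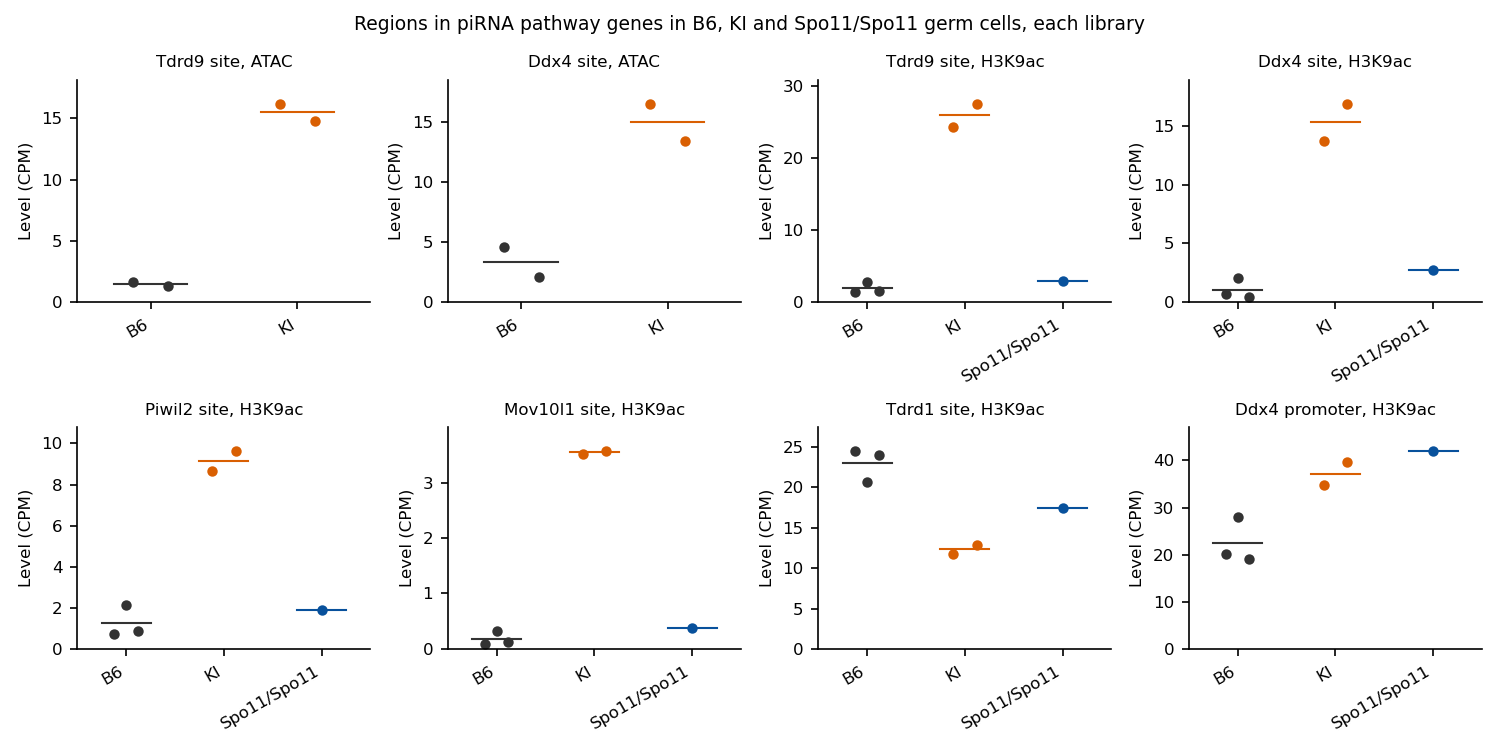
ATAC and H3K9ac levels in CPM at regions of Tdrd9, Ddx4, Piwil2, Mov10l1 and Tdrd1, 1 point per library with the group mean as a line. KI libraries lie above every B6 library at the first 6 panels and below them at the Tdrd1 site, where the B6 libraries read 20.7 to 24.5 CPM and KI 11.8 and 12.9.

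No member promoter passed the H3K9ac test with edgeR (0 of 12 regions, with 2 under 0.05 before adjustment), while DESeq2 called those of Ddx4 and Mael. Their median log2 difference was 0.21 (from -0.34 to 0.73) beside -0.09 over all promoter regions, of which 5.09% passed. The largest difference was at Ddx4, with 20.2, 28.1 and 19.1 CPM in B6, 34.7 and 39.7 in KI and 42 in Spo11/Spo11 (KI against B6 0.73, adjusted p = 0.1 with edgeR and 0.0117 with DESeq2). Mael followed, with 18.6, 24.5 and 17.3 CPM in B6, 31.9 and 30.3 in KI and 31.3 in Spo11/Spo11 (0.63, adjusted p = 0.117 with edgeR and 0.0248 with DESeq2). At both genes all B6 libraries lay below all others.

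How many member regions passed depended on single libraries. Without B6 replicate 2, 23 of 34 member regions passed in KI against B6, 14 higher and 9 lower, where 28.7% of all regions were higher and 26.8% lower. Among the main promoters 7 were then higher (Ddx4 by 0.92, Piwil4 0.87, Mael 0.79, Mov10l1 0.53, Tdrd9 0.40, Piwil2 0.34 and Asz1 0.28) and 2 lower (Tdrd1 -0.50 and Tdrd5 -0.32). Of all promoter regions 20.2% were then higher and 31.6% lower. Without KI replicate 1 or 2 the count was 0, with 0 of all regions called either time, while the log2 differences were 3.89 and 3.72 at the Tdrd9 site, 4.12 and 3.81 at Ddx4, 4.34 and 4.32 at Mov10l1 and -0.87 and -0.97 at the Tdrd1 region. Without B6 replicate 1 it was 3 (7029 of all regions higher and 46 lower), and without B6 replicate 3 it was 1, the Tdrd9 site (1987 higher and 0 lower).

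B6 replicate 2 stood apart at the het DMC1 sites in Asz1 and Mov10l1, but not at the Tdrd1 region, where it was the lowest of the B6 libraries. At the Asz1 site (chr6:18094485-18095850) the B6 libraries read 2.26, 12.1 and 1.99 CPM, KI 1.06 and 1.70, and Spo11/Spo11 6.73. At the Mov10l1 internal start (chr15:89019118-89020890) they read 1.97, 10.8 and 2.19 CPM, KI 1.16 and 1.76, and Spo11/Spo11 7.41. The second B6 library was thus the highest of all 6 at each, and the other B6 libraries lay near KI. The cause was not tested.

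The Spo11/Spo11 library was compared with the same B6 libraries, so that this comparison and the one of KI share their controls. No member region passed with edgeR (0 of 34, where 0% of all 91909 regions passed), and DESeq2 also called 0. DESeq2 gave an adjusted p to only 4596 of all regions, so its 0 is not a second test of all 34. With edgeR, 2 member regions had an unadjusted p under 0.05. These were the promoters of Ddx4 (log2 difference 0.91) and Mael (0.64), whose values are given above. Without B6 replicate 2, 16 of the 34 passed, 12 higher and 4 lower, where 35.7% of all regions passed. The promoters of Ddx4 (1.10), Mael (0.80), Piwil2 (0.71), Mov10l1 (0.61), Tdrd9 (0.55) and Piwil1 (0.44) were then higher, and the Mov10l1 internal start (1.83) and the Asz1 site (1.66) were too. So were the sites named above in Ddx4 (2.35), Piwil2 (1.26) and Tdrd9 (1.0) and a region in Piwil1 (chr5:128746340-128747329, 2.57). The 4 lower regions lay in the bodies of Tdrd5 (chr1:156283381-156286427, -0.90), Tdrd1 (chr19:56850575-56856265, -0.48, and chr19:56864507-56867072, -0.76) and Piwil1 (chr5:128703579-128705604, -0.63). Of all promoter regions 18.4% were then higher and 12.5% lower. This library was made with another kit (KAPA) than those of B6 and KI (NEXTflex), so the genotype and the kit cannot be told apart.

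Deletion of Hells went with lower H3K4me3 at 3 sites inside member genes and with no change that passed the test at their main promoters. The sites were in Mov10l1, Asz1 and Tdrd1, and each overlapped a DMC1 peak of the Hells het list. The main promoters of Asz1 (log2 difference 0.08) and Ddx4 (-0.21) overlapped a het peak too and did not pass. The share of lower regions among all regions with a het peak was not computed. Of 21 member regions, CKO was higher at 0 and lower at 3, where 11.7% of all 78959 regions were lower and 3.55% of promoter regions passed. At the Mov10l1 internal start (chr15:89018803-89020598, in state 7) H3K4me3 was 0.56, 0.722 and 0.697 CPM in CKO and 4.96 in the wt library, a log2 difference of -2.92 (SE 0.315, edgeR adjusted p = 0.00037). The same region read 9.64 CPM in Spo11/+ and 8.59 and 7.80 in Spo11/Spo11, so that all 3 CKO libraries lay below the other 4. State 7 covers 0.562% of the genome.

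The Asz1 site (chr6:18094403-18095998, intronic and in state 7) read 1.37, 1.08 and 0.55 CPM in CKO and 5.46 in wt (log2 difference -2.43, SE 0.392, edgeR adjusted p = 0.0018). It read 10.6 CPM in Spo11/+ and 10.3 and 8.89 in Spo11/Spo11. The Tdrd1 site (chr19:56854201-56855810) read 1.31, 1.96 and 2.71 CPM in CKO and 5.31 in wt (-1.42, SE 0.374, edgeR adjusted p = 0.0293), and 7.95 in Spo11/+ and 6.62 and 6.77 in Spo11/Spo11. At both sites the CKO libraries again lay below the other 4. Unlike the sites in Mov10l1 and Asz1, the Tdrd1 site lay mostly in state 1 (62.1% of it), and state 7 covered 0% of the Tdrd1 span. The Tdrd1 call was lost with RLE scaling, with DESeq2 and without CKO replicate 2, at log2 differences of -1.30, -1.30 and -1.37. With 1 wt library, its spread was assumed to be like that of the other groups.

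**Figure D4:**
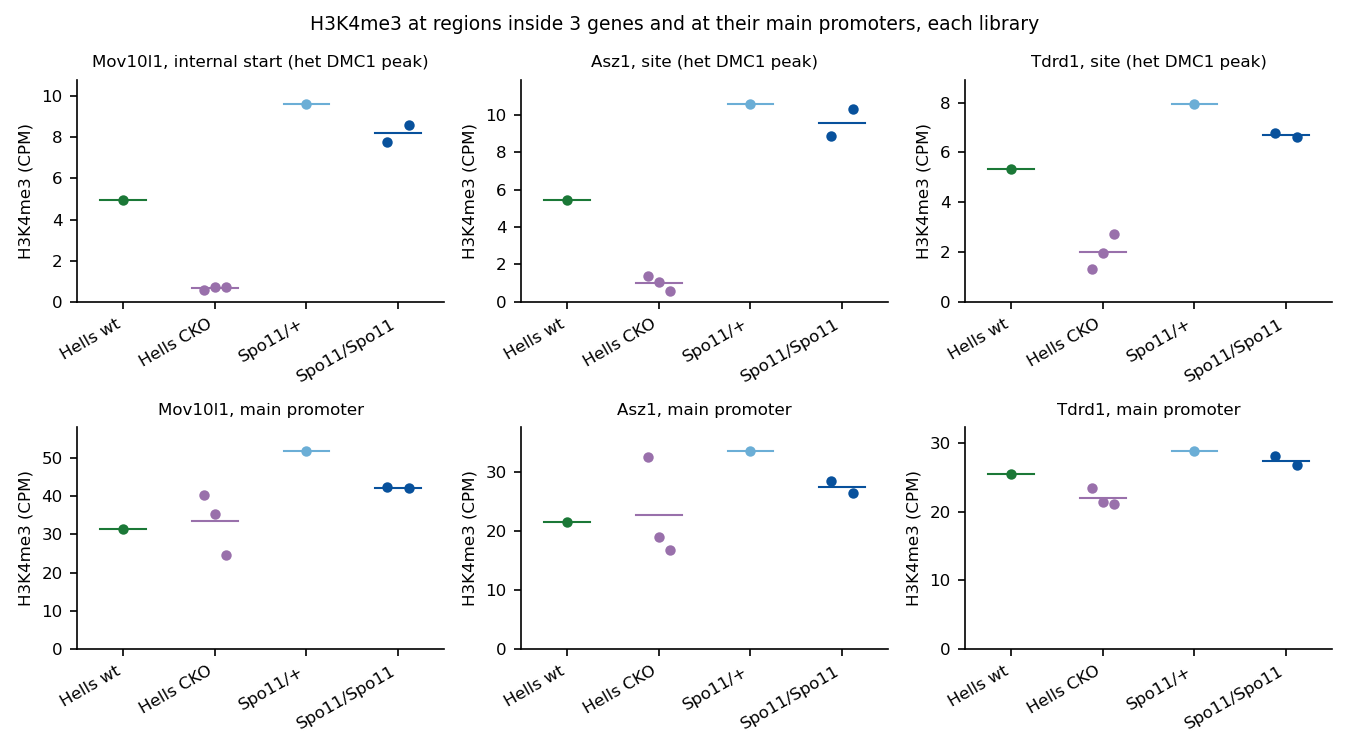
H3K4me3 in CPM at the Mov10l1 internal start and the sites in Asz1 and Tdrd1 (top) and at the main promoters of the same genes (bottom), 1 point per library with the group mean as a line. The 3 Hells CKO libraries lie below the other 4 in each top panel, while at the Mov10l1 and Asz1 promoters they lie on both sides of the Hells wt library. At the Tdrd1 promoter the CKO libraries (21.2 to 23.5 CPM) lie below the other 4 (25.5 to 28.9), where the test was not passed (edgeR adjusted p = 0.72).

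Against the mean of Hells wt, Spo11/+ and Spo11/Spo11, the differences were -3.48 at Mov10l1, -3.03 at Asz1 and -1.73 at Tdrd1. A region of Piwil1 (chr5:128737295-128738140) was then lower too, by a log2 difference of -1.86. Against Hells wt alone, the main promoters had differences from -0.33 (Piwil1) to 0.09 (Mov10l1). Their median was -0.06 with TMM, beside 0.19 over all promoter regions. With RLE the sign of their median turned (0.05), while the median over all regions moved from -0.02 to 0.09. The Ddx4 promoter, the member with a HELLS peak, read 27.8, 23.1 and 15.8 CPM in CKO and 25.7 in wt (log2 difference -0.21, SE 0.284, edgeR adjusted p = 0.834). The wt value thus lay within the CKO range.

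ATAC in the Hells lines showed no member region past the threshold. None of its regions overlapped the sites in Mov10l1, Asz1 and Tdrd1 where H3K4me3 was lower in CKO. Openness at those sites was therefore not tested. Of 33 regions 0 passed with edgeR, 0 had an unadjusted p under 0.05 and 0 passed with DESeq2, where 0.382% of all 95033 regions passed. The main promoters had a median log2 difference of -0.30 (from -0.51 to 0.07) beside -0.05 over all promoter regions. At Ddx4 the CKO libraries read 38.0, 26.8 and 14.7 CPM and the wt libraries 40.4 and 25.8. At Piwil2 they read 34.0, 26.6 and 21.5 against 37.9 and 26.0 CPM. In both genes CKO replicate 3 was the lowest and the rest overlapped. When single libraries were left out, the median over the main promoters ran from -0.55 (without CKO replicate 1) to -0.08. It was -0.08 without CKO replicate 3 and also without wt replicate 1.

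Loss of Spo11 went with no H3K4me3 difference past the threshold at these genes. Of 21 regions 0 passed with edgeR, 0 had an unadjusted p under 0.05 and 0 passed with DESeq2, where 0% of all 78959 regions passed with edgeR. The main promoters had log2 differences from -0.30 to 0.12 between Spo11/Spo11 (n = 2) and Spo11/+ (n = 1). The Mov10l1 and Asz1 sites read 9.64 and 10.6 CPM in Spo11/+ and from 7.80 to 10.3 CPM in the Spo11/Spo11 libraries.

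The F1 hybrid allowed the B6 and the CAST chromosome to be compared in the same cells. No member promoter passed the ATAC test of the alleles, while sites inside 5 of the genes did. Of 25 member regions with allele counts 21 had at least 20 and were tested, and 3 were higher and 4 lower on the CAST allele, where 7.17% of 70654 regions were higher and 9.02% lower. Of 11 member promoter regions 0 passed with edgeR and with DESeq2, and 1 had an unadjusted p under 0.05, where 13.9% of all promoter regions passed. The 9 main promoters tested had log2 differences of CAST over B6 from -0.28 (Tdrd1) to 0.26 (Mael). The Ddx4 promoter, the one with most allele counts, had CAST shares of 51.5% (exact 95% interval 48.6 to 54.4) and 49.4% (45.7 to 53.1) in ATAC and 48.5% (43.3 to 53.8) in H3K9ac. The Tdrd1 promoter had CAST shares of 44.1% (38.7 to 49.5) and 45.5% (39.6 to 51.4) in ATAC and 36.4% (27.4 to 46.3) in the 1 H3K9ac library. The Piwil4 promoter with most counts here (chr9:14739920-14741487), another one than in ATAC and H3K9ac of B6 and KI, had 52.9% and 54.5% in ATAC and 36.4% (26.9 to 46.6) in H3K9ac. The Asz1 promoter held almost no allele counts (6 and 0, 1 and 1 for B6 and CAST in the ATAC libraries), so its balance could not be read. In ATAC of B6 and KI that promoter read 24.6 to 30.2 CPM, and the cause of the few allele counts was not tested.

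The 2 sites that were more open in KI than in B6 were biased toward the B6 chromosome in the F1. At the Tdrd9 site (chr12:112007482-112009239) the CAST allele had 24.6% and 22.3% of the ATAC counts (log2 -1.67, SE 0.278, edgeR adjusted p = 3.96e-08) and 24.6% of the H3K9ac counts (exact 95% interval 17.1 to 33.4, n = 1). At the Ddx4 site (chr13:112610414-112611881) it had 37.6% and 21.4% of the ATAC counts (-1.26, SE 0.255, edgeR adjusted p = 1.33e-05) and 14.8% of the H3K9ac counts (interval 6.98 to 26.2). All 3 libraries thus lay under 50% at both sites. With DESeq2 the adjusted p was 0.0186 at the Tdrd9 site and 0.166 at the Ddx4 site. The Piwil2 site that rose in H3K9ac (here chr14:70405017-70406385) had CAST shares of 40.4% and 42.5% in ATAC and 47.3% in H3K9ac. It did not pass the ATAC test (log2 -0.47, edgeR adjusted p = 0.531). The Mov10l1 site that rose in H3K9ac held 0 allele counts. The Tdrd1 region at the het DMC1 peak (chr19:56854244-56855245) had CAST shares of 36.1% and 35.3% in ATAC (-0.82, SE 0.174, edgeR adjusted p = 3.16e-05) but 61.7% in H3K9ac, with an interval of 48.2 to 73.9.

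The largest ATAC imbalance among the member regions tested lay inside Tdrd9 at the promoter of another gene, Rd3l (chr12:111977426-111979592). The CAST allele had 84.5% and 86.7% of the ATAC counts there (log2 2.58, SE 0.184, edgeR adjusted p = 2.12e-42) and 81.8% of the H3K9ac counts. Piwil1 held a region of each direction: at chr5:128710293-128712038 the CAST shares were 72.7% and 63.5% in ATAC and 93.9% in H3K9ac (1.10, SE 0.358, edgeR adjusted p = 0.0158). At chr5:128706567-128708129 they were 37.5% in both ATAC libraries and 48.1% in H3K9ac (-0.71, SE 0.260, edgeR adjusted p = 0.0407). In Tdrd5 (chr1:156284364-156286240) they were 58.0% and 60.8% in ATAC and 48.7% in H3K9ac (0.58, SE 0.146, edgeR adjusted p = 0.000855). DESeq2 called the 2 Tdrd9 regions alone, among 1256 higher and 1901 lower over all regions, and gave the other 5 similar differences (-1.27 in Ddx4, -0.82 in Tdrd1, 0.58 in Tdrd5, and -0.71 and 1.13 in Piwil1). How far differences in read mapping between the 2 genomes add to these shares was not tested.

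**Figure D5:**
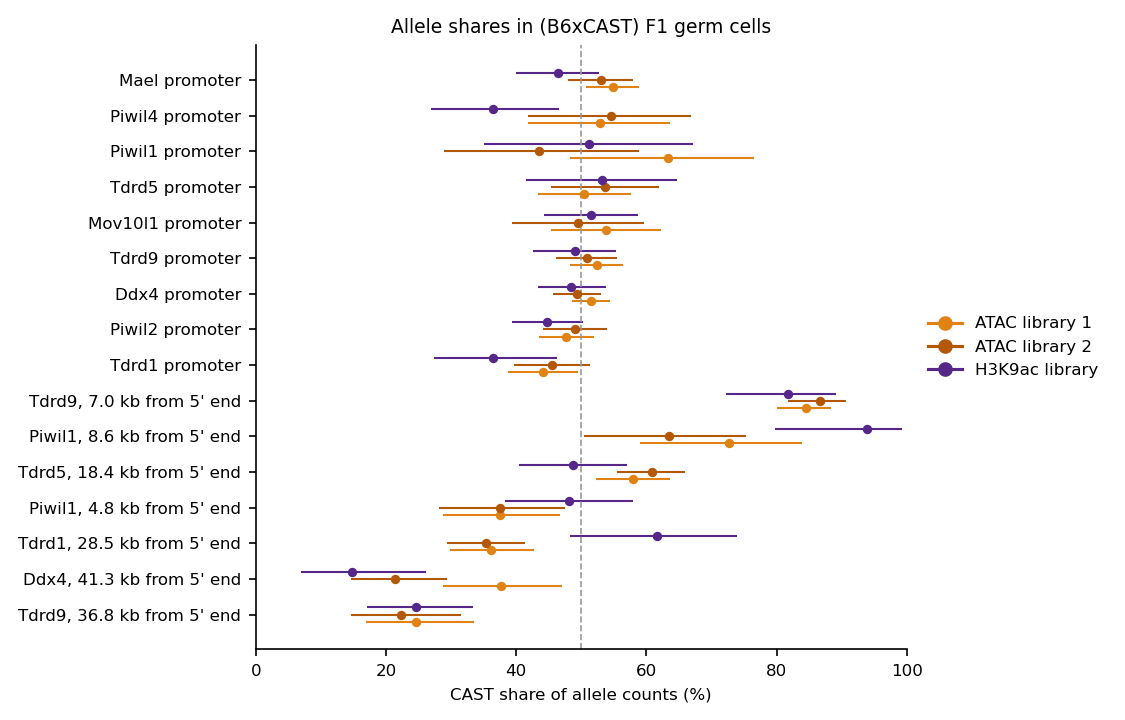
Share of allele counts from the CAST chromosome in percent at the main promoters and at the 7 regions past the threshold, 1 point per library with its exact 95% binomial interval, and a dashed line at equal shares. Most intervals of the promoters cross the dashed line, but those of H3K9ac at Tdrd1 and Piwil4 (36.4% each) and of ATAC library 1 at Tdrd1 (44.1%) lie below it and that of ATAC library 1 at Mael (54.9%) above, and the sites that rose in KI inside Tdrd9 and Ddx4 lie below it in all 3 libraries.

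Among the promoters of 22 other piRNA pathway genes, 21 were tested in ATAC and H3K9ac and 22 in H3K4me3 and the F1. With edgeR 0 passed in ATAC of KI against B6 (1 at an unadjusted p under 0.05), in Hells ATAC (0), in H3K9ac of KI (0) and of Spo11/Spo11 (4) against B6, and in H3K4me3 of Spo11/Spo11 against Spo11/+ (0). In H3K4me3 of Hells CKO against wt 1 of 22 passed, that of Dnmt3c, the methyltransferase of young transposon promoters in the male germ line (log2 difference -1.19, edgeR adjusted p = 0.0129). In the F1 the CAST allele was higher at Adad2 (0.45), Dnmt3c (1.91) and Stk31 (0.76) and lower at Pld6 (-0.80), the mitochondrial nuclease of the pathway, 4 of 22 beside 13.9% of all promoter regions. CKO DMC1 peaks lay at 12 of the 22 promoters, beside 40.3% of all genes, and het peaks at 3, those of Rnf17, Mybl1 and Morc1, beside 7.72%. HELLS peaks lay at those of Tdrd12 and Stk31, beside 6.73%.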

How the data were processed

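Genes and starts were taken from GENCODE M21 (mm10), and chromosome ends were checked against the segmentation on 21 chromosomes and lay within 200 bp on all. The deposited tables hold raw counts of reads per region for ATAC, H3K9ac, H3K4me3 and HELLS, and for the F1 the authors deposited estimated counts per allele, which were rounded. The submitters' processing notes name CASAVA, BWA 0.7.15, Bowtie 0.12.9, MACS 1.4.2 and mm10; which tool made which file is not given in the sources used here. Left out were 10 columns whose names matched no sample, 56 duplicated regions of Hells ATAC, and the ATAC libraries of DBA/2J and Spo11, which were not analysed here. Column names of ATAC in B6 and KI give the strain alone, so their replicate numbers only name columns.

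The quasi-likelihood F test of edgeR 4.0.16 (R 4.3.3) was run over each whole table after TMM scaling and filterByExpr, with p-values adjusted by Benjamini-Hochberg and called at 0.05; the scripts were tested on simulated data. ATAC fits held the compared groups, and H3K9ac and H3K4me3 fits all groups of the table. F1 alleles were compared within libraries (a library term in the fit) where a region had 20 or more allele counts. Alternatives were DESeq2 1.42.0, other scalings, no filter on low counts, promoter windows of 500 and 2000 bp, and blocks or contrasts named with the results. Each library of a group with more than 1 was also left out in turn. The single libraries of Hells wt and Spo11/+ in H3K4me3 and of Spo11/Spo11 in H3K9ac were never left out. Levels are TMM-scaled CPM of these counts, or CPM per kb of region. Overlap meant at least 1 bp. Sequences came from RefSeq GRCm38.p6, and figures from Python 3.11.15 with matplotlib 3.10.9.

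All 10 genes were named, each by its promoter region of highest summed count, with every region past the threshold. The genes, lists and tests were chosen with earlier results of these data known. No label says that replicates were separate animals, so p-values measure the spread between these libraries, which may be technical. In edgeR that spread is partly shared over the regions of a table, so it is not that of a single region alone. With 2 ATAC libraries in the F1, its edgeR p-values rest mostly on the shared spread.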

Additional observations from a re-analysis of the deposited data

How the results depend on the processing

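Of 165 tested values of single regions under the alternatives, 139 kept their direction and their side of the threshold, 26 kept the direction but missed the threshold and 0 turned. The 139 include the values under the promoter windows of 500 and 2000 bp. Those windows reuse the main fit, so these values could not change. A further 37 values had no test and 0 of them turned, though a value of 0 has no direction. In ATAC of KI against B6 the 2 member regions called became 4 with RLE scaling and 4 with DESeq2, and 2 to 6 when single libraries were left out. In H3K9ac of KI against B6 the 5 called became 8 with DESeq2, which added the promoters of Ddx4 and Mael and a region in Piwil1, and 0 to 23 when single libraries were left out; fitted on B6 and KI alone, the Tdrd1 region missed the threshold. In H3K9ac of Spo11/Spo11 against B6 the 0 called ranged from 0 to 16. In the F1 the 7 called became 2 with DESeq2 and 6 with library size alone. Of all ATAC regions of KI against B6, 9.41% were called in the main fit, 9.59% with RLE scaling and 9.24% with DESeq2. In H3K9ac of KI against B6 the share went from 12.3% to 16.9% with DESeq2. In the F1 it went from 16.2% to 4.47% with DESeq2 and to 16.3% with library size alone. The cause of these shifts was not tested. Scaling moved the median over all regions of H3K4me3 in Hells CKO against wt from -0.02 (TMM) to 0.09 (RLE) and -0.17 (library size alone), and that of H3K9ac in KI against B6 from -0.07 to -0.22 with library size alone. DMC1 counts stayed at 8 (CKO) under each window, and the het count went from 3 to 2, without Mov10l1, when at least 50% of the peak had to lie in the window. HELLS windows of 500 and 2000 bp, chosen after seeing the data, gave 1. A fit of 1 F1 library leaves no residual degrees of freedom and was not run. No paired analysis was possible because the replicate numbers only name libraries and no label ties libraries of different groups to one animal; with the labels' library number series as a block, Hells ATAC still gave 0 calls.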
